A study of Homo sapiens with 4 samples.

Results

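The genes described here are 39 interferon-stimulated genes, named by symbol and not by their values, out of 23368 entries of the deposited count table. All 39 symbols were found there. They were measured by RNA-seq in 4 established human lines of precursor-B acute lymphoblastic leukemia (ALL), with 1 library per line. The translocation t(4;11), which joins the MLL gene to AFF1, is carried by RS4;11 and by SEM, here the translocation lines, whereas NALM6 and REH lack it. The cultures of all 4 lines had RPMI with fetal bovine serum, and the labels name no interferon or virus treatment. Each group is therefore 2 lines (n = 2), each the descendant of a single leukemia. A p-value for the groups measures the spread between unrelated lines, with all their other differences, and not between cultures of 1 line.

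Interferons are secreted proteins that cells release on sensing a virus. Type I interferons bind the receptor pair IFNAR1 and IFNAR2, whose kinases JAK1 and TYK2 set off the assembly of the complex ISGF3. This complex, which contains STAT2 and IRF9, binds a DNA element called ISRE and switches on interferon-stimulated genes. Interferon gamma instead works mainly through a second element, GAS. The products of these genes block viral entry, RNA replication, translation and budding, and some are themselves sensors or factors that amplify the response. Many are also transcribed at a low level without added interferon. In bulk RNA such as this, fewer expressing cells and less RNA per cell cannot be told apart.

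The promoters of 5 members are shown because these genes share the element and yet differ in how their levels compared between the lines. Of the 39 members, 30 matched an entry in the RefSeq promoter table (GRCh38.p14), which spans 300 bases around each start. The ISRE core was searched as GAAA, any 2 bases and GAAA again, on both strands, and GAS as TTCNNNGAA, which reads alike on both strands. In this window 20 of the 30 members held the ISRE core (66.7%), against 3.65% of all 27305 promoters in the table. GAS was held by 8 of the 30 (26.7%), against 7.88% of all promoters, and matches of both kinds overlapped in IFI27, IFITM1 and BST2. The 250 bases before the start are printed 5′ to 3′ on the gene's strand, with ISRE matches in capitals.
IFIT3, chr10:89327747-89327996, plus strand: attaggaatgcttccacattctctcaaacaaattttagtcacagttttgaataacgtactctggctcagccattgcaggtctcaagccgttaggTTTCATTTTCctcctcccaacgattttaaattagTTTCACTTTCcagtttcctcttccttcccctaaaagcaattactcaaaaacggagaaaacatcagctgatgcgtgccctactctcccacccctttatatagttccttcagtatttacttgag
IFIT1, chr10:89392373-89392622, plus strand: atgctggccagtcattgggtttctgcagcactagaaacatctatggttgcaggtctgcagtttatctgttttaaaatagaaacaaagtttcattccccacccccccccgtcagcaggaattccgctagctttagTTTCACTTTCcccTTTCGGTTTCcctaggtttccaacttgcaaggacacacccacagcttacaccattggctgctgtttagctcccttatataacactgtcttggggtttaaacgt
IFIT5, chr10:89414318-89414567, plus strand: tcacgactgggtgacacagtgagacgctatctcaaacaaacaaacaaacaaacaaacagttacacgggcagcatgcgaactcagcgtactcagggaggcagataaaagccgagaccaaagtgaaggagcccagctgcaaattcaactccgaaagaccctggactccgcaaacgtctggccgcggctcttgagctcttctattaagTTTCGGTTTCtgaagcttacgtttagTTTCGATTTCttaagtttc
HERC5, chr4:88456869-88457118, plus strand: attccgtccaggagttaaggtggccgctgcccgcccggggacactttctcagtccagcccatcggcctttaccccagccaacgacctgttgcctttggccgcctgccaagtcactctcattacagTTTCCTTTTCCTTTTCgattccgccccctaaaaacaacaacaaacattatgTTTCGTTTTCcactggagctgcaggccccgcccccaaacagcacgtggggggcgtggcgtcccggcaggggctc
ISG20, chr15:88638766-88639015, plus strand: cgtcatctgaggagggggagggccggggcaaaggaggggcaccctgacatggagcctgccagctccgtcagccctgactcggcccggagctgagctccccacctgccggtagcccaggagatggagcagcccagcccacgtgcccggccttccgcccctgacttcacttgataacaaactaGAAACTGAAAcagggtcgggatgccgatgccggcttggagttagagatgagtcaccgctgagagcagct
The 2 ISRE matches of IFIT1 begin 116 and 103 bases before the start, and those of IFIT3 begin 156 and 122 bases before it. IFIT5, in the same gene cluster, holds them at 45 and 19 bases, and the third match, at 4 bases, crosses the start. HERC5 has 3 matches, of which the pair at 125 and 119 bases overlap, and ISG20 has 1 at 69 bases. MX1 has its match 11 bases past the start, and PARP9, STAT2, XAF1 and RSAD2 have none of these letters in the window. Only a gap of exactly 2 bases was searched, so repeats with another gap are not counted. RSAD2, OAS1 and DDX58 hold GAAACGAAA, for example, and were scored as having no ISRE core. Windows were matched by symbol and not to the counted loci. That of RSAD2 (chr2:6865635-6865934) may lie away from the start of its counted locus, which begins at 7017796 in hg19. What is said of RSAD2 holds for this window only. A match is a run of letters and not a measured binding site.

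Levels are given as CPM, each count scaled by the summed gene counts of its library, in which 3 counts correspond to between 0.0356 CPM (REH) and 0.0892 CPM (SEM). IFITM2, a membrane protein that blocks virus fusion, had 524 CPM in RS4;11, 298 in SEM, 334 in NALM6 and 66.3 in REH. It had the highest counts of any member in the first 3 of these, while in REH OAS3 did. IFI27, a mitochondrial protein that interferon induces, was nearly silent, with 3, 3, 6 and 17 counts in the same order. All 39 members summed to 1529 CPM in RS4;11, 1229 in SEM, 1537 in NALM6 and 1599 in REH. IFITM2 made up 34.3%, 24.3%, 21.7% and 4.15% of these sums. Without IFITM2 the other 38 members summed to 1005 CPM in RS4;11, 930.2 in SEM, 1203 in NALM6 and 1532 in REH. REH held the largest sum and SEM the smallest either way, but with IFITM2 included REH was close to NALM6 and RS4;11. Between genes only length-scaled values can be compared, and the authors' deposited Cuffdiff table gives FPKM per group, without a spread over lines. On that scale the median member stood at 7.21 FPKM with t(4;11) and 8.89 without it, beside medians of 9.18 and 9.66 over all 14203 genes that Cuffdiff tested. IFITM2 led in both groups, at 741 and 334 FPKM, followed by BST2 at 87.0 and 58.8 FPKM.

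**Figure D1:**
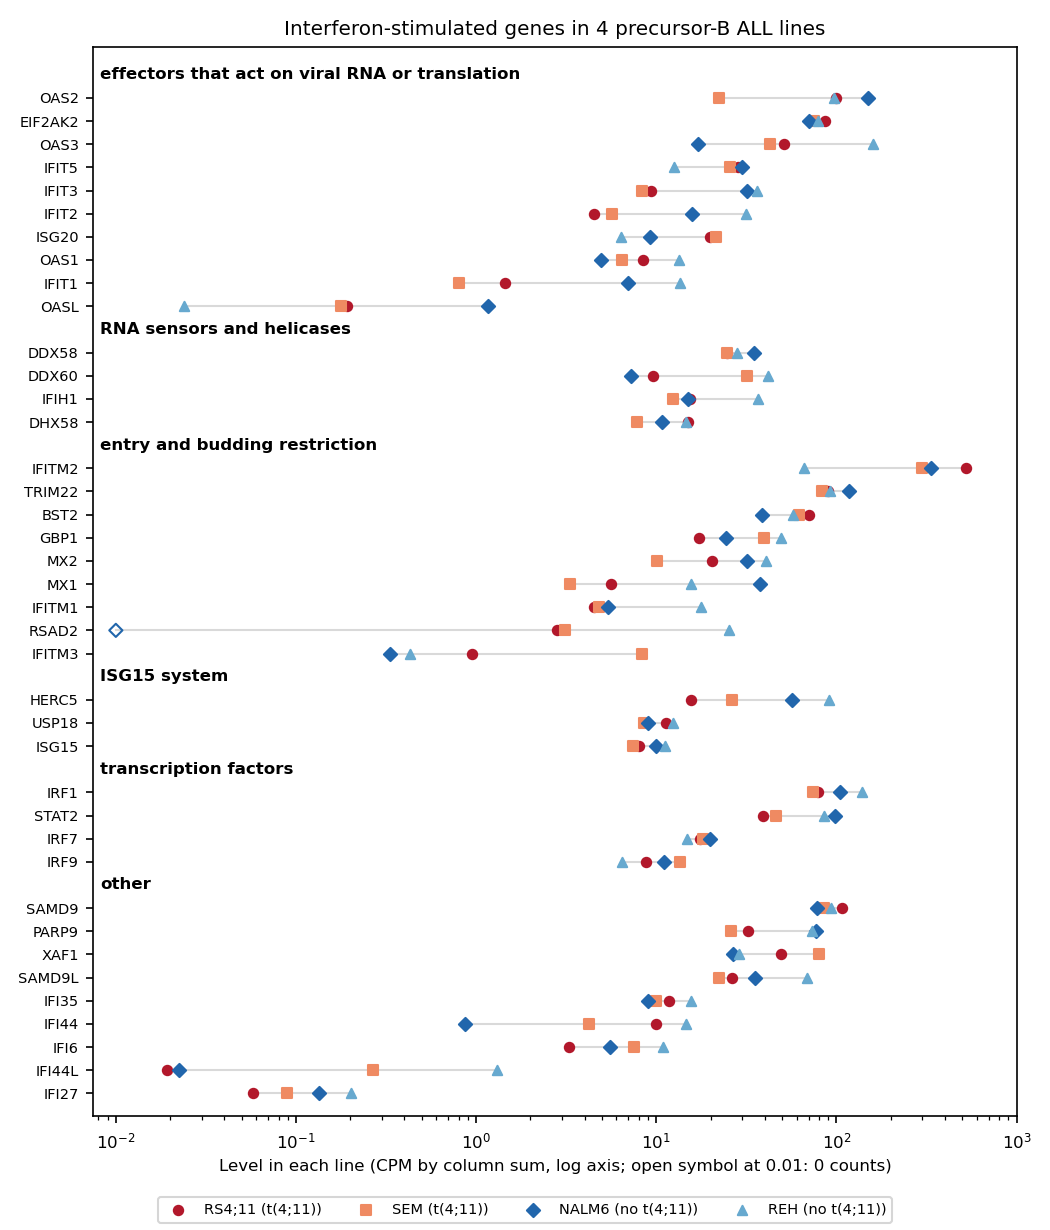
Level of each of the 39 members (horizontal log axis, CPM) in RS4;11, SEM, NALM6 and REH, 1 symbol per library, arranged by role. REH lies rightmost for OAS3 at 159 CPM and NALM6 leftmost for RSAD2 at 0 counts (open symbol, drawn at 0.01 CPM), while EIF2AK2 lies between 70.8 and 86.4 CPM in all lines.

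The main comparison asked whether these genes differ between lines with and without t(4;11). No member passed. At an adjusted p under 0.05, 0 of the 37 tested members and 0 (0%) of all 13844 tested genes were called by the quasi-likelihood test of edgeR. IFI27 and OASL fell below the filter on low counts. At an unadjusted p under 0.05 the same test gave 7 members lower with t(4;11) (IFIT1, IFIT2, IFIT3, HERC5, MX1, PARP9 and STAT2) and 2 higher (XAF1 and ISG20), against 5.87% and 6.18% of all genes. DESeq2 on the same counts called the same 9 members, 7 lower and 2 higher, where it called 4.93% and 5.21% of all genes in these directions. edgeR's exact test called 0 members and 3.19% of all genes. In the authors' deposited tables no member was called either, against 1.56% of genes by DESeq and 2.34% by Cuffdiff, which did not test IFI44L. The smallest deposited adjusted p was that of HERC5 in the authors' deposited DESeq table, at 0.0769.

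For 14 of the 37 members tested, both translocation lines had lower levels than NALM6 and REH, and for 4 they had higher ones. Over all genes tested these shares were 28.3% lower and 19.0% higher, where the members had 37.8% and 10.8%. The fitted log2 fold change was below 0 for 27 of the 37 members (51.1% of all genes), with a median of -0.28 against -0.02 over all genes. This median rested on REH: without REH it was -0.02, with 19 of 37 members below 0, and without NALM6 it was -0.75. With TMM-scaled libraries the split was 13 lower and 5 higher, against 23.4% and 24.2% of all genes, because TRIM22 then overlapped and EIF2AK2 no longer did.

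**Figure D2:**
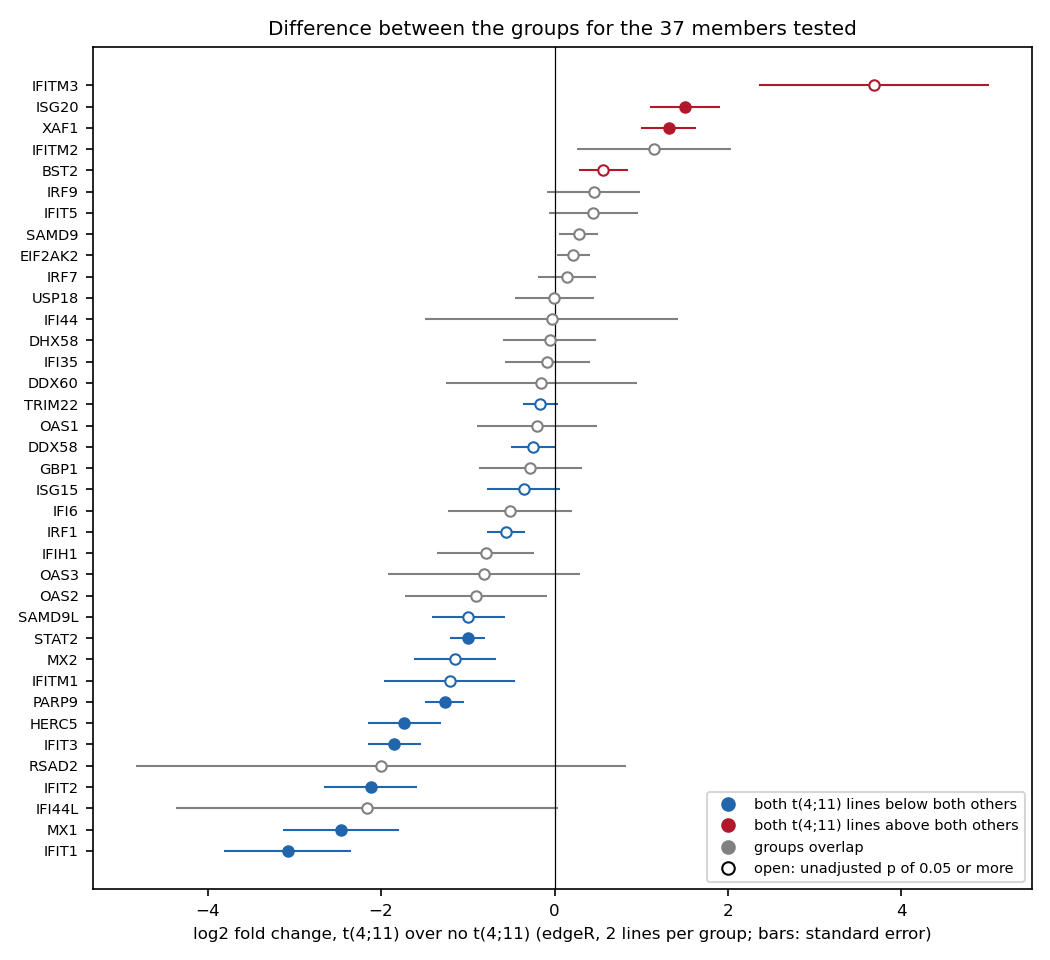
edgeR log2 fold change of t(4;11) over no t(4;11) (horizontal axis; bars are standard errors; 2 lines per group) for the 37 members tested, coloured by whether the groups overlap in CPM. Filled points, with an unadjusted p under 0.05, run from IFIT1 at -3.08 to ISG20 at 1.50, and RSAD2 and IFI44L have the widest errors.

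Of the IFIT proteins, IFIT1 binds viral RNA that lacks the cap marks of host RNA and holds it back from translation. IFIT1 reached 6.96 CPM in NALM6 and 13.5 in REH, but 1.45 in RS4;11 and 0.803 in SEM. Both translocation lines lay below both others, and the fitted log2 fold change was -3.08 (SE 0.73), with an edgeR adjusted p of 0.349. IFIT2, which also promotes cell death, had 4.53 CPM in RS4;11, 5.65 in SEM, 15.7 in NALM6 and 31.7 in REH. Its fitted log2 fold change was -2.12 (SE 0.54), with an edgeR adjusted p of 0.360. IFIT3, which stabilises IFIT1, had 9.29 CPM in RS4;11, 8.30 in SEM, 31.7 in NALM6 and 36.2 in REH. Its fitted log2 fold change was -1.84 (SE 0.30), with an edgeR adjusted p of 0.310. For both genes, too, the translocation lines were the lower pair. In both groups the 2 lines were close for IFIT3, at 8.80 ± 0.703 and 33.9 ± 3.16 CPM (SD, n = 2 each). IFIT5, the fourth gene of the cluster, had another order, with 28.3, 25.7 and 30.0 CPM in RS4;11, SEM and NALM6 and 12.6 CPM in REH. Its groups overlapped, and REH, the highest line for the other three, was the lowest. In hg19 the cluster lies on chromosome 10, with IFIT2 at 91061706 to 91069033, IFIT3 at 91087602 to 91100725, IFIT1 at 91152322 to 91163744 and IFIT5 at 91174325 to 91180759.

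The OAS enzymes make short 2′-5′ linked adenylates on binding double-stranded RNA, which set off RNA decay. OAS2 stood at 99.3 CPM in RS4;11, 22.3 in SEM, 150.5 in NALM6 and 96.7 in REH, so that SEM alone was low. OAS3, which responds to long double-stranded RNA, stood at 51.0, 42.6, 17.1 and 159 CPM, low in NALM6 and high in REH. OAS1 ranged from 4.93 CPM (NALM6) to 13.4 CPM (REH), and the catalytically inactive OASL from 0.0237 CPM (REH, 2 counts) to 1.16 CPM (NALM6, 52 counts). These 4 genes overlapped between the groups. EIF2AK2, the kinase PKR that stops translation on sensing double-stranded RNA, was the most even member, at 86.4, 75.3, 70.8 and 78.5 CPM. ISG20, an exonuclease of single-stranded RNA, was one of the 4 members higher in both translocation lines, with 19.8 CPM in RS4;11, 21.5 in SEM, 9.25 in NALM6 and 6.38 in REH. Its fitted log2 fold change was 1.50 (SE 0.40), with an edgeR adjusted p of 0.370. In hg19 ISG20 lies on chromosome 15 from 89182039 to 89198879. Of the 10 members that act on viral RNA or translation, the IFIT genes included, 9 were tested, and 3 of them were lower and 1 was higher in both translocation lines, close to the 28.3% and 19.0% of all genes.

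Among the cytoplasmic RNA sensors, DDX58 (RIG-I, which detects short RNA with a 5′ triphosphate) was equal in both translocation lines at 24.8 CPM, beside 35.0 CPM in NALM6 and 28.1 in REH. IFIH1 (MDA5, the sensor of long double-stranded RNA) stood at 15.5, 12.3 and 15.1 CPM in RS4;11, SEM and NALM6 and at 36.7 CPM in REH. DHX58 (LGP2, which tunes these sensors) ranged from 7.82 CPM (SEM) to 14.9 CPM (RS4;11). The helicase DDX60 split each group, with 9.60 CPM in RS4;11 and 31.9 in SEM, and 7.20 CPM in NALM6 and 41.8 in REH. The log2 fold changes of these 4 genes lay between -0.80 and -0.05. DDX58 alone was lower in both translocation lines, 1 of 4, near the 28.3% of all genes.

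A further 9 members were grouped under entry and budding restriction, a loose heading that also holds RSAD2, TRIM22 and GBP1. Of these 9, 4 were lower and 2 higher in both translocation lines, and 3 overlapped, where 28.3% of all genes were lower and 19.0% higher. With TMM scaling TRIM22 left the lower ones. MX1, a GTPase that traps viral nucleocapsids, reached 37.7 CPM in NALM6 and 15.5 in REH, but 5.63 in RS4;11 and 3.30 in SEM. Its fitted log2 fold change was -2.46 (SE 0.67), with an edgeR adjusted p of 0.376. Its neighbour MX2, which acts on HIV at the nuclear pore, had 20.4 CPM in RS4;11, 10.1 in SEM, 31.8 in NALM6 and 40.8 in REH. Both lie on chromosome 21 in hg19, MX2 from 42733950 to 42780869 and MX1 from 42792520 to 42831141. For both genes the translocation lines lay below the others.

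The 3 IFITM genes, which keep virus envelopes from fusing with the cell membrane, each had another line on top. IFITM3 stood at 0.945 CPM in RS4;11, 8.33 in SEM, 0.334 in NALM6 and 0.427 in REH. SEM alone was high. The fitted log2 fold change was 3.68 (SE 1.33), with an edgeR adjusted p of 0.421, and was 1.43 without SEM. IFITM2, given above, was highest in RS4;11 and 5.04-fold higher in NALM6 than in REH (95% interval 4.89 to 5.20, exact, for counting error only). IFITM1 was low in 3 lines, at 4.49, 4.82 and 5.42 CPM, and stood at 17.6 CPM in REH. In hg19 they lie together on chromosome 11, IFITM2 at 308107 to 309410, IFITM1 at 313991 to 315272 and IFITM3 at 319673 to 320914. They are similar copies, to differing degrees, so the split of reads among them is uncertain.

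BST2 (tetherin, which holds budding virions on the cell surface) was higher in both translocation lines, with 70.6 CPM in RS4;11, 62.3 in SEM, 38.8 in NALM6 and 57.6 in REH. RSAD2 (viperin, a radical SAM enzyme that makes a chain-terminating nucleotide) had 25.3 CPM in REH and 0 counts in NALM6, with RS4;11 (2.80 CPM) and SEM (3.12 CPM) between them. TRIM22, an antiviral ubiquitin ligase, was even, between 83.6 CPM (SEM) and 117 CPM (NALM6). GBP1, a GTPase known best for its response to interferon gamma, ranged from 17.4 CPM (RS4;11) to 49.3 CPM (REH), with overlapping groups.

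ISG15 is a ubiquitin-like protein that HERC5 attaches to newly made proteins and USP18 removes. The ligase gene HERC5 had 15.6 CPM in RS4;11, 26.2 in SEM, 57.0 in NALM6 and 91.4 in REH. The translocation lines lay below both others, the fitted log2 fold change was -1.73 (SE 0.42), and the edgeR adjusted p was 0.350. ISG15 itself was also lower in both translocation lines, with a smaller gap, at 7.98, 7.38, 9.99 and 11.1 CPM. USP18, which also damps the type I receptor, stood at 11.3, 8.57, 9.03 and 12.3 CPM with overlapping groups.

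Among the transcription factors, STAT2, the ISGF3 subunit that carries its activation domain, had 38.9 CPM in RS4;11, 46.3 in SEM, 97.9 in NALM6 and 84.8 in REH. The groups did not overlap. The lines without t(4;11) had 2.15-fold the mean CPM of the others (fitted log2 fold change -0.9996, SE 0.20), and the edgeR adjusted p was 0.320. STAT2 lies on chromosome 12 from 56735382 to 56754037 in hg19. IRF9, the DNA-binding subunit of the same complex, did not share that order, with 8.81, 13.5, 11.1 and 6.44 CPM in RS4;11, SEM, NALM6 and REH. IRF1, a primary target of interferon gamma, was also lower in both translocation lines, with 79.0 CPM in RS4;11, 73.9 in SEM, 104 in NALM6 and 138 in REH. IRF7, the amplifier of interferon alpha transcription, was even, between 14.7 CPM (REH) and 19.8 CPM (NALM6).

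The other members were a mixed group. PARP9, which works with the ubiquitin ligase DTX3L, had 32.1 CPM in RS4;11, 25.9 in SEM, 77.3 in NALM6 and 72.8 in REH. Its groups lay well apart, the fitted log2 fold change was -1.27 (SE 0.22), and the edgeR adjusted p was 0.310. XAF1, a pro-apoptotic antagonist of XIAP, had the opposite order, with 49.3 CPM in RS4;11, 80.2 in SEM, 26.8 in NALM6 and 28.9 in REH (fitted log2 fold change 1.32, SE 0.31). Its edgeR adjusted p was 0.350. XAF1 lies on chromosome 17 from 6659156 to 6678964 in hg19. SAMD9L, a growth-restraining protein, had 26.4 CPM in RS4;11, 22.4 in SEM, 35.1 in NALM6 and 69.0 in REH. Its neighbour SAMD9 was even, between 77.5 and 107 CPM.

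IFI44, a cytoplasmic protein of the response, stood at 9.93, 4.25, 0.870 and 14.7 CPM in RS4;11, SEM, NALM6 and REH. NALM6 was thus far below the other lines. Its paralog IFI44L had 1, 9, 1 and 110 counts in the same order. IFI6, which protects the endoplasmic reticulum from virus remodelling, ranged from 3.30 CPM (RS4;11) to 11.0 CPM (REH), and IFI35 from 9.01 CPM (NALM6) to 15.6 CPM (REH). The groups overlapped for these 4 genes.

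Several members lie beside another interferon-induced gene, and neighbours did not always share an order. CMPK2, HERC6 and DTX3L are such neighbours outside the 39 and were picked out after their values were seen. RSAD2 and the mitochondrial kinase gene CMPK2 lie side by side on chromosome 2 in hg19, at 7017796 to 7038363 and 6980684 to 7006766, and shared their order of lines. In NALM6 they had 0 counts and 1 count, in REH 2128 and 3409 counts. RSAD2 was at least 378-fold higher in REH than in NALM6, taking 3 counts as the floor of that library. For CMPK2 the ratio was 1816 (95% interval 326 to 71731, exact, for counting error only).

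HERC5 and HERC6, adjacent on chromosome 4, had their groups in opposite order: HERC6 was higher in RS4;11 (9.04 CPM) and SEM (12.8) than in NALM6 (1.94) and REH (6.83). PARP9 and DTX3L share 1 locus in the Cuffdiff table (chromosome 3, 122246760 to 122294049, hg19). DTX3L was nearly level, at 128 and 134 CPM against 136 and 149 CPM, where PARP9 was 2.59-fold higher in the mean of the lines without t(4;11). The library kit does not mark strand, so reads from overlapping parts of such neighbours cannot be told apart. Differences between neighbours were not tested.

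**Figure D3:**
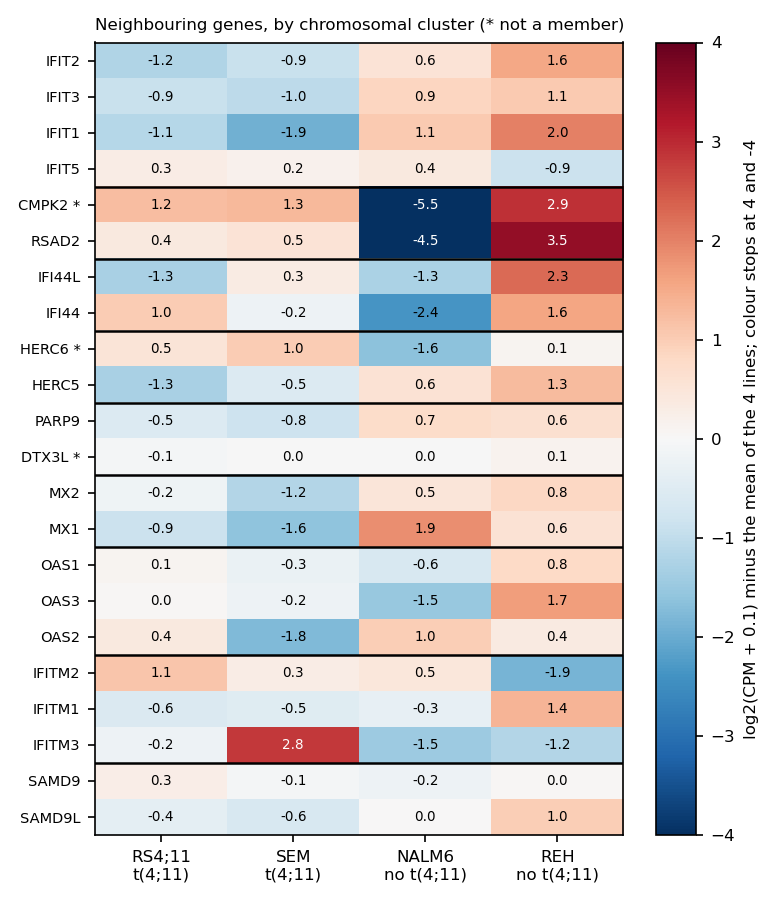
Deviation of each gene's log2(CPM + 0.1) from its mean over the 4 lines (colour and printed value), by line (columns), for neighbouring genes (rows, boxed by cluster; an asterisk marks a gene outside the 39). RSAD2 and CMPK2 are both far below the mean in NALM6, IFIT2, IFIT3 and IFIT1 are below it in both translocation lines, and IFIT5 is below it in REH only.

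Single lines had orders of their own. REH had the highest level of the 4 lines for 20 of the 37 members tested (54.1%, against 32.3% of all genes tested), NALM6 for 8 (28.4% of all genes), RS4;11 for 5 (17.3%) and SEM for 4 (22.0%). SEM was the lowest line for 13 members (26.8% of all genes), NALM6 for 11 (23.4%), RS4;11 for 8 (24.5%) and REH for 5 (25.3%). REH was also the deepest library and SEM the shallowest, and the part of depth in this order was not tested. With TMM scaling REH was again highest for 20 members and SEM lowest for 13. A median member lay 0.53 above its own 4-line mean on the log2(CPM + 0.1) scale in REH, where the median of all genes tested lay 0.07 above it. In RS4;11, SEM and NALM6 the median member lay at -0.16, -0.20 and -0.12.

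Between the 2 lines of a group, with 1 library each and no test, 36 members with a mean of at least 1 CPM were compared. At least 4-fold higher in REH than in NALM6 were IFI44, OAS3, RSAD2 and DDX60, 4 of 36, near the 9.58% of all genes. IFITM2 alone was at least 4-fold higher in NALM6 than in REH (5.22% of all genes). OAS2 alone was so in RS4;11 over SEM (4.41% of all genes) and IFITM3 alone in SEM over RS4;11 (5.18%).

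**Figure D4:**
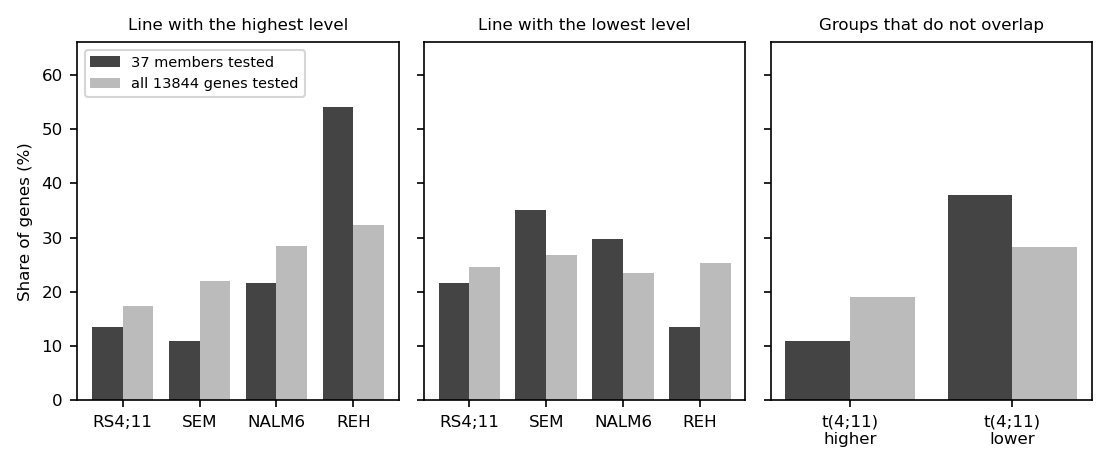
Share of genes (vertical axis, percent) whose highest level, or lowest level, is in each line, and share with non-overlapping groups, for the 37 members tested (dark) and all 13844 genes tested (light). REH is highest for 54.1% of the members against 32.3% of all genes, and 37.8% of the members are lower in both translocation lines against 28.3%.

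The rest of the pathway was read from lists of genes that are not among the 39. Of 21 interferon genes, none had more than 3 counts in any line and 15 had 0 counts in all lines, which limits each to 0.0892 CPM in SEM and less in the other lines. The receptor genes were present: IFNAR1 stood at 96.3, 87.6, 81.8 and 89.9 CPM in RS4;11, SEM, NALM6 and REH. IFNAR2 had 45.1, 39.4, 26.2 and 32.7 CPM in the same order, higher in both translocation lines. IFNGR1, of the interferon gamma receptor, had 33.9, 33.4, 47.2 and 66.9 CPM, lower in both of them. Its partner IFNGR2 was low in NALM6 alone, at 34.3, 41.4, 13.6 and 44.7 CPM. IL28RA, the specific chain of the interferon lambda receptor, split both groups, at 27.6, 0.476, 16.7 and 0.0237 CPM, while its shared chain IL10RB was even at 31.4, 31.3, 34.0 and 39.2 CPM.

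The receptor kinases were expressed in every line, again in the order RS4;11, SEM, NALM6 and REH. JAK1 stood at 140.3, 196, 260.2 and 117 CPM, TYK2 at 110.1, 105, 193 and 131 CPM, and JAK2 at 24.4, 11.5, 29.8 and 41.5 CPM. The feedback inhibitor genes were low, with SOCS1 at 0.906, 0.0595, 0.468 and 0.511 CPM and SOCS3 at 0, 0.149, 0 and 0.439 CPM. PIAS1, a SUMO ligase that restrains the pathway, was even at 48.3, 49.7, 56.5 and 51.2 CPM. The phosphatase genes PTPN2 (58.8, 65.0, 50.2 and 37.1 CPM) and PTPN6, which encodes SHP-1 (439, 442, 281 and 57.2 CPM), were higher in both translocation lines. Of these 15 receptor and signalling genes 14 were tested, and 0 had an unadjusted quasi-likelihood p under 0.05, while 3 were higher and 5 lower in both translocation lines. These counts are near the shares of all genes, 19.0% higher and 28.3% lower. The median log2 fold change of the list was 0.09.

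Of 21 sensors and adaptors, 18 were tested, and 2 were higher with t(4;11) at an unadjusted p under 0.05, with 0 lower, against 6.18% and 5.87% of all genes. In both translocation lines 4 of the 18 were higher and 4 lower (19.0% and 28.3% of all genes), and the median log2 fold change was 0.12. The 2 with the low p were TMEM173 (STING), at 45.8, 36.1, 18.7 and 24.4 CPM in RS4;11, SEM, NALM6 and REH, and MB21D1 (cGAS, the DNA sensor that signals to STING), at 24.8, 28.4, 14.6 and 15.2 CPM. Their edgeR adjusted p-values were 0.381 and 0.386. Among 5 tested IRF genes outside the 39, the smallest p was that of IRF8, at 27.7, 139.7 and 33.1 CPM in RS4;11, SEM and REH and 2.05 CPM in NALM6 (edgeR adjusted p = 0.614).

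A further list of 50 interferon-induced genes had 45 tested, with a median log2 fold change of -0.24. Of these 19 were lower and 8 higher in both translocation lines, against 28.3% and 19.0% of all genes. At an unadjusted p under 0.05, 5 were lower (RNF213, PSMB9, TRIM14, TAP1 and TAP2) and 2 higher (SLFN12 and TNFSF13B), against 5.87% and 6.18% of all genes. The higher counts are near these shares. TAP1, TAP2 and PSMB9 are neighbours, placed in the Cuffdiff table on an alternate copy of a chromosome 6 region (6_ssto_hap7). How reads that fit more than 1 such copy were counted is not given, so their levels are uncertain. The lowest p was that of RNF213, a large ubiquitin ligase, at 201, 235, 651 and 504 CPM in RS4;11, SEM, NALM6 and REH. SLFN5, a Schlafen gene, was the only one called in the authors' deposited DESeq table (adjusted p = 7.13e-07). It had 38.9 CPM in RS4;11, 23.3 in SEM, 2.12 in NALM6 and 0.0119 in REH (1 count), and the Cuffdiff q in the authors' deposited table was 0.252. The chemokine genes CXCL9 and CXCL10, strongly induced by interferon gamma in many cells, had 0 counts in all lines.

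Libraries held between 33620574 counts (SEM) and 84212986 counts (REH). The labelled cell type was checked with precursor-B markers: CD79A, PAX5, EBF1 and CD22 lay above 70 CPM in every line, CD79B was low in SEM (9.73 CPM), and VPREB1 was nearly absent from REH (0.226 CPM). The T cell genes CD3D, CD3E and CD3G and the plasmacytoid dendritic gene CLEC4C had 0 counts in all lines, and CD14 had at most 9 counts. The summed level of the 5 T and NK markers was 11.1 to 26.1 CPM with t(4;11) and 0.959 to 1.50 CPM without it, nearly all from NKG7. The 5 monocyte markers summed to 13.4 and 38.0 CPM with t(4;11) and 8.43 and 6.90 CPM without it, of which CSF1R was 10.0 and 33.3 CPM in RS4;11 and SEM. In RS4;11, SEM, NALM6 and REH the 4 plasmacytoid dendritic markers summed to 16.9, 2.47, 2.43 and 5.08 CPM. Of these sums NRP1 was 16.1, 2.26, 1.25 and 5.02 CPM, while IL3RA had 0 counts in all lines. IL3RA lies in a region shared by X and Y, where reads that fit both may go uncounted, so its 0 is not read as absence. The 5 stromal markers summed to 1.81, 4.16, 0.245 and 3.04 CPM in the same order. The part of all these markers in the results was not tested. For 1 gene, 2 lines against 2 cannot give an exact two-sided permutation p below 0.333.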

How the data were processed

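RNA-seq values of 4 lines were taken from 2 deposited tables. Per the submitters' processing notes, the tools were Cuffdiff, DESeq, HTSeq, TopHat, TopHat2 2.0.4 and CASAVA 1.8.2, with hg19 as the build. The sources used here give neither their settings nor the annotation. One table, per the file headers, gives for each gene the HTSeq counts of every line, the authors' DESeq normalized counts and group means (a signal, not used here), a ratio of control over t(4;11) that the authors deposited (not used either), and DESeq p-values. The second holds, per the file headers, the authors' Cuffdiff FPKM per group, log2 fold changes, a test score, p-values and q-values.

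CPM used column sums. Groups were compared with edgeR 4.0.16 under R 4.3.3, from the raw counts: TMM, filterByExpr, glmQLFit and glmQLFTest, two-sided, Benjamini-Hochberg over 13844 genes, threshold 0.05, with 2 residual degrees of freedom. The standard error is the log2 fold change divided by the square root of F. Alternatives were DESeq2 1.42.0, edgeR's exact test, RLE or column-sum scaling, no filter, and leaving out each line. Floors are 3 counts, and intervals are exact binomial at 95%. Both cover counting error only, as no molecular identifiers are named. PRIC285 and NT5C3 were matched as older symbols. Promoter coordinates are GRCh38.p14 and gene loci hg19, with starts counted from 1, and none were converted. Figures used matplotlib 3.10.9 in Python 3.11.15.

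Fold changes, errors and adjusted p-values were printed for the 10 members with the smallest unadjusted p, which include all under 0.05, and levels for the others. A few genes of the wider lists are not reported here. The members and lists were chosen with earlier results of these data known.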

Additional observations from a re-analysis of the deposited data

How the results depend on the processing

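The count of members called was 0 under every setting tried except DESeq2, which called 9 members and 1349 genes in all, with an adjusted p of NA for 537 genes. Over all genes the count was 441 by edgeR's exact test and 5 with no filter on low counts, and 0 under the other scalings and without any 1 line. The 9 members with an unadjusted quasi-likelihood p under 0.05 were the 9 that DESeq2 called. The number of members with non-overlapping groups was 18, and lay between 23 and 33 when 1 line was left out, a comparison that is easier to separate with fewer samples. In these comparisons 45.9% to 67.6% of the members were lower with t(4;11), against 39.4% to 45.3% of all genes. The members that were higher made up 13.5% to 32.4%, against 28.0% to 34.3% of all genes. The median log2 fold change of the members lay between -0.75 (without NALM6) and -0.018 (without REH), where all genes had 0.01 and 0.05. Without RS4;11 it was -0.51 and without SEM -0.49. With column sums alone the median of all genes moved from -0.02 to -0.12, and that of the members to -0.37, so the gap between them was -0.25, beside -0.26 with TMM. For the 10 members with the smallest p, the direction was kept under every setting. The groups did not overlap for any of these 10, so leaving out 1 line could not reverse it, and no support is drawn from this. The log2 fold change of IFITM3 ranged from 1.43 to 4.54 when 1 line was left out. In such fits a group of 1 line is assumed to vary like the other. Restricting the promoter search to the bases before the start left ISRE in 18 members and GAS in 8. The TMM-scaled counts of separated members and of highest and lowest lines were chosen after seeing the data. No paired analysis was possible because the labels carry no replicate numbers and each line is a separate leukemia. Genes with few counts, such as IFI27, OASL and IFI44L, are limited by depth.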
